A study of Mus musculus with 8 samples.

Results

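Gata2, Gata3, Gata4, Gata5 and Gata6 are the autosomal genes of the GATA transcription factors. These 5 genes were taken by name from 20665 protein-coding genes annotated on autosomes. The rule uses no measured value, but the family was picked with earlier results of these data known. Each was examined with 20 kb on either side, and these 5 windows covered 360.4 kb and held 32 peaks from 3 chromatin immunoprecipitation sequencing (ChIP-seq) libraries of wild-type cells. HMGA2 peaks lay in the windows of Gata2 (2), Gata3 (6) and Gata4 (2), and none lay in those of Gata5 and Gata6. Peaks of γ-H2AX lay at Gata2 (3), Gata3 (2), Gata4 (4) and Gata5 (1), and ATM peaks at Gata2 (2), Gata3 (3), Gata4 (4) and Gata6 (3). At Gata6, a gene this study is known to have followed, ATM was the only antibody of the 3 with a peak, a pattern found at 391 of 20665 genes (1.89%). The pattern of Gata5, with a peak of γ-H2AX only, was as uncommon, at 394 genes (1.91%). These shares describe patterns that had already been seen.

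The cells were mouse embryonic fibroblasts of strain C57BL/6, from embryos at stage E15.5 and at passages 2 to 4, with the genotype Hmga2 wt or Hmga2 Ko. The series has 8 libraries, 1 for each genotype with antibodies against HMGA2, H2AXS139ph (γ-H2AX, histone H2AX phosphorylated at its C-terminal serine) or ATM, or as input. The HMGA2, γ-H2AX and ATM peak lists of Hmga2 wt cells were used, with 152834, 124947 and 119570 peaks. Libraries of Hmga2 Ko cells and the inputs were not analysed here. With 1 library per antibody there is no replicate error and no p-value, and the intervals given are exact Poisson 95% intervals of counts, which cover counting error only. The labels do not say how many embryos gave the cells, and peaks cannot show which cell type markers were expressed.

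GATA factors are zinc-finger proteins that bind DNA at sites built around the letters GATA. Gata1, Gata2 and Gata3 are best known from blood cells, and Gata4, Gata5 and Gata6 from heart and from endoderm-derived organs such as gut and lung. HMGA2 is an architectural chromatin protein whose AT-hooks contact the minor groove of AT-rich DNA. ATM is a kinase activated by DNA double-strand breaks, and the tail of H2AX is among its substrates.

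Most peak scores were low, in the Gata windows as in the whole lists. Each peak carries a score from the authors' peak caller, which rises as the p of the peak falls. The lowest score in the lists, at the p threshold of 0.01, was 20, which is -10 times the log10 of that threshold. Scores in the Gata windows ran from 20.1 to 35.39, and 2 of the 32 peaks scored 30 or more, an ATM peak inside Gata4 and a γ-H2AX peak just beyond one of its annotated ends. In the whole lists, 11.6% of HMGA2, 10.3% of γ-H2AX and 10.2% of ATM peaks scored 30 or more. Within the windows the shares were 0%, 10.0% and 8.33% in the same order. The median score in the windows was 23.37 for HMGA2, against 23.75 in its whole list. For γ-H2AX it was 26.07 against 23.58, and for ATM 21.53 against 23.58. Scores were not read as amounts of protein.

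**Figure D1:**
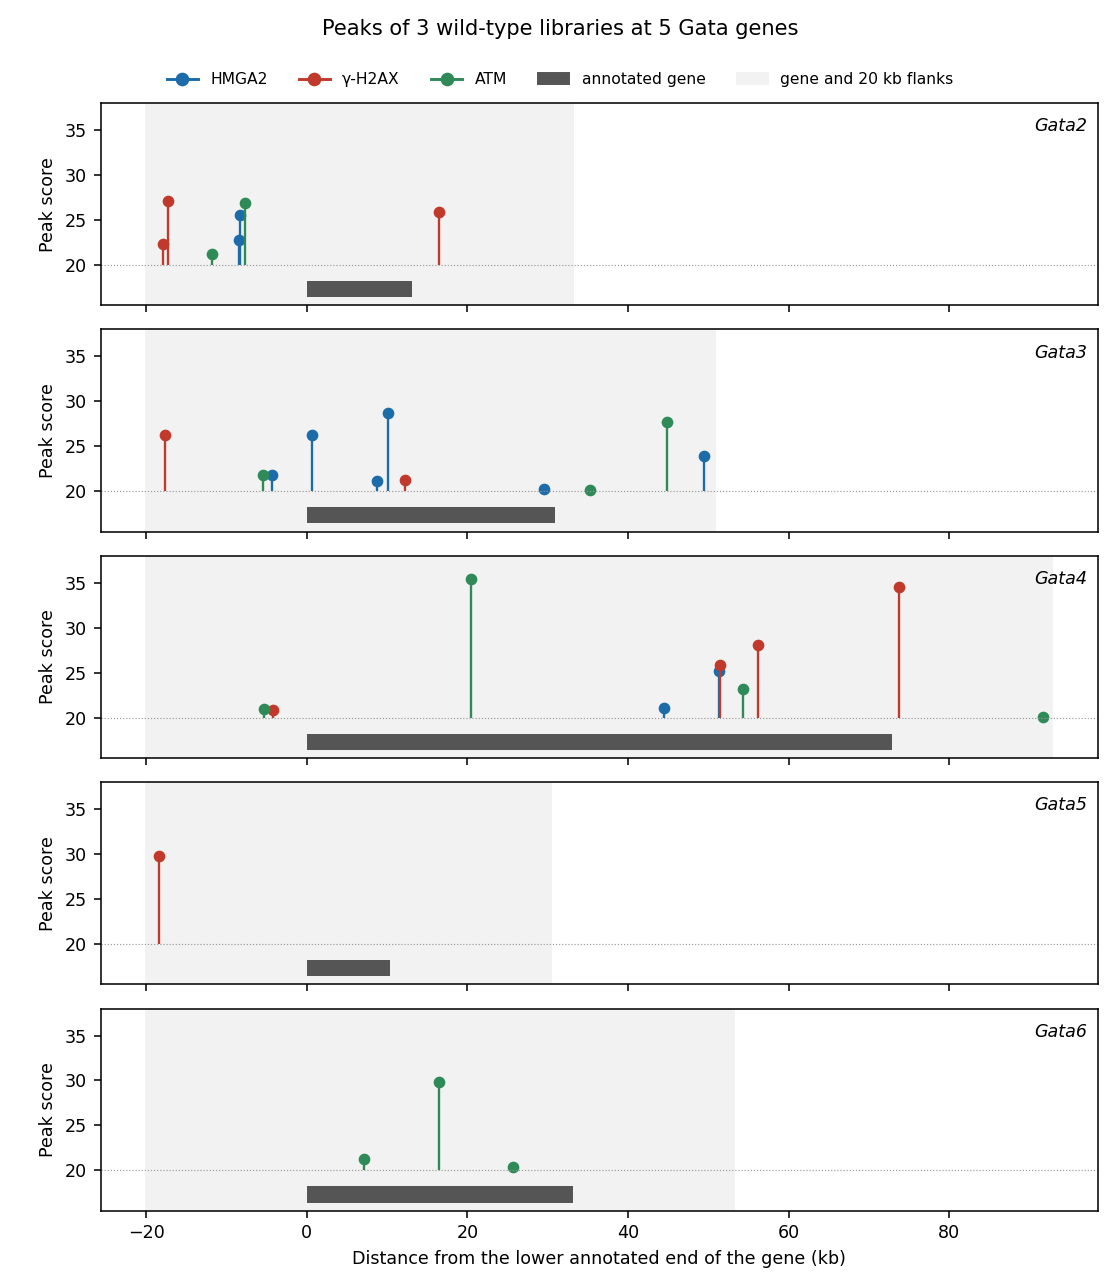
Peaks of HMGA2, γ-H2AX and ATM at the 5 Gata genes, by distance in kb from the lower annotated end of each gene (x axis) and by the authors' peak score (y axis, with the threshold of 20 dotted). Grey bars are the annotated genes and shading their windows; Gata3 held 6 HMGA2 peaks, Gata5 held 1 γ-H2AX peak in all, and Gata6 held 3 ATM peaks and none of the others.

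To set counts beside the density of each list, an expected count was computed for every window. It is the mean number of peaks touching the window when the list is moved round its chromosome through every possible rotation. For HMGA2 the 5 windows held 10 peaks (4.80 to 18.4) against 21.9 expected, a ratio of 0.456 (0.219 to 0.838). For γ-H2AX there were 10 peaks against 17.8, a ratio of 0.563 (0.270 to 1.04), and for ATM 12 peaks (6.20 to 21.0) against 16.9, a ratio of 0.711 (0.368 to 1.24). The interval of HMGA2 lay below 1 and those of the other antibodies included 1. The median HMGA2 ratio over all 20665 genes was also below 1, at 0.724, against 0.965 for γ-H2AX and 0.912 for ATM. The medians of the 5 Gata genes were 0.286, 0.552 and 0.808 in the same order. The medians over all genes lie inside the intervals of the 5 windows together for each antibody. These measures differ, since a median counts each gene alike and the ratio of the windows together gives long windows more weight. With the density within 1 Mb on either side of each gene in place of the whole chromosome, the HMGA2 ratio was 0.590 (0.283 to 1.08), and its interval then included 1.

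A peak somewhere in the window was the usual state of a gene. HMGA2 peaks lay in the windows of 3 of the 5 Gata genes, where 86.4% of all genes had at least 1. For γ-H2AX it was 4 of 5 against 90.1%, and for ATM 4 of 5 against 90.3%. Within the annotated gene itself HMGA2 peaks were found at Gata3 and Gata4, 2 of 5 against 50% of all genes. Peaks of γ-H2AX lay inside the same 2 genes, against 56.3%, and ATM peaks inside Gata4 and Gata6, against 52.6%. Within 1 kb of an annotated end, Gata3 was the only member with an HMGA2 peak (1 of 5 against 18.1% of all genes) and Gata4 the only one with γ-H2AX (1 of 5 against 24.1%). ATM was at no end (0 of 5 against 16.5%). None of the 5 genes had a region of the authors' γ-H2AX promoter list within 1 kb of an end, where 9.41% of all genes had one, nor of their ATM promoter list, where 3.55% had one. These counts out of 5 genes were not tested against the shares of all genes.

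**Figure D2:**
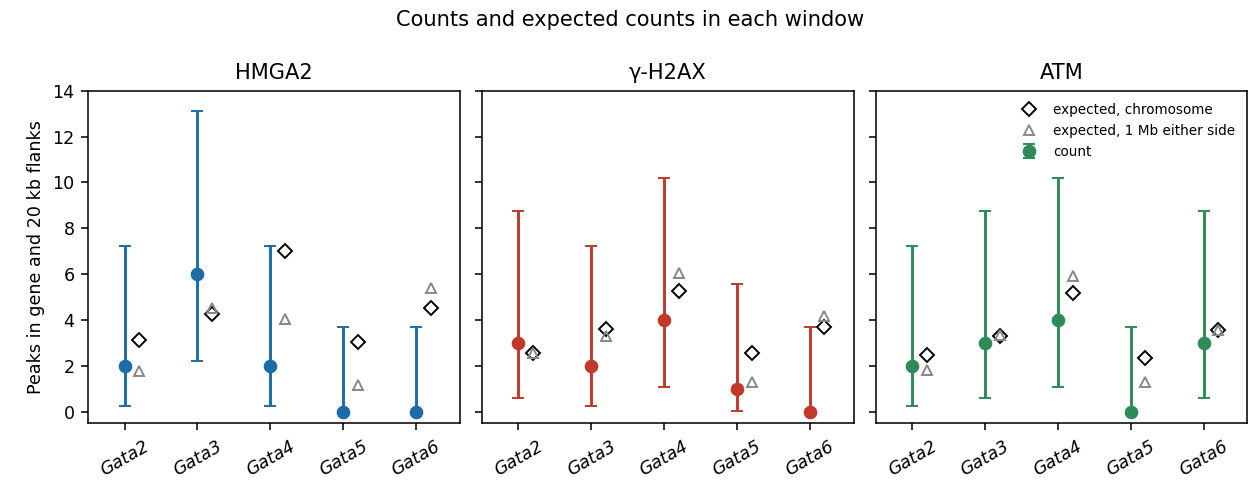
Number of peaks in each Gata window (filled points, y axis, with exact Poisson 95% intervals as bars) for HMGA2, γ-H2AX and ATM, with the expected count from the whole chromosome (open diamonds) and from 1 Mb on either side (open triangles). For HMGA2 and γ-H2AX the upper limits at Gata6, 3.69 in both panels, lie below both expected counts. Divided by the count expected from the chromosome, both limits lie above the median ratio over all genes.

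Gata3, the regulator of T helper cell fate and of several epithelia, had the most HMGA2 peaks. It lies on chromosome 2 at 9857078 to 9887953, and its window of 70.9 kb held 6 HMGA2 peaks (2.20 to 13.1) against 4.26 expected, a ratio of 1.41, higher than at 82.3% of all genes. Of these, 4 lay inside the gene. The highest, with a score of 28.7 (chr2:9867152-9867276), lay 11.4 kb downstream of the listed transcription start, and 16.7% of HMGA2 peaks scored as high or higher. Another scored 26.27 (chr2:9857574-9857809) and lay 496 bp inside the lower end, which is the downstream end of this minus-strand gene. The other HMGA2 peaks inside scored 21.09 and 20.24, and those outside 21.83 and 23.96. The weakest of the 6, with a score of 20.24, also lay in the long non-coding RNA (lncRNA) genes 4930412O13Rik and 9230102O04Rik, which overlap the upstream part of the annotated gene.

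The other antibodies were not high at Gata3. There were 2 γ-H2AX peaks (0.242 to 7.22) against 3.62 expected, with scores of 26.26 and 21.28, and only the weaker lay inside the gene. ATM had 3 peaks (0.619 to 8.77) against 3.29, with scores of 21.83, 20.14 and 27.65, all outside. The HMGA2 ratio of 1.41 had an interval of 0.517 to 3.07 and the γ-H2AX ratio of 0.552 one of 0.0669 to 1.99, and these intervals overlap.

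Gata2, needed in haematopoietic stem and progenitor cells, lies on chromosome 6 at 88193891 to 88207032, on the plus strand. No peak of any list lay inside it. Its window of 53.1 kb held 2 HMGA2 peaks against 3.13 expected, 3 γ-H2AX peaks against 2.57 and 2 ATM peaks against 2.47. The 2 HMGA2 peaks, with scores of 22.77 and 25.53, lay 8.36 and 8.17 kb upstream of the gene and were parted by 8 bp (chr6:88185380-88185536 and chr6:88185545-88185717). An ATM peak with a score of 26.88 followed 462 bp beyond the nearer of them (chr6:88186180-88186344), and a weaker ATM peak of 21.24 lay 11.7 kb upstream. Peaks of γ-H2AX with scores of 22.29 and 27.05 lay 17.8 and 17.2 kb upstream, and another, with a score of 25.88, 3.23 kb downstream. All 6 upstream peaks fell within Gm38708, an lncRNA gene annotated at 88141848 to 88198284 that overlaps the start of Gata2 by 4394 bp.

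Promoter sequences were available for some of the starts. The RefSeq promoter table for GRCm38.p6, to which mm10 coordinates belong, gives 250 bases before to 50 after each start and holds 4 such windows for 3 of the genes, 2 for Gata2 and 1 each for Gata3 and Gata5. No peak of the 3 lists touched any of the 4, and few promoters were touched in general, 1.47% of all by HMGA2, 3.63% by γ-H2AX and 1.84% by ATM peaks. All 4 are GC-rich, and 1 for each gene is shown, 5′ to 3′, with runs of at least 4 letters that are A or T in capitals.
Gata2, the first start, chr6:88193641-88193940, plus strand: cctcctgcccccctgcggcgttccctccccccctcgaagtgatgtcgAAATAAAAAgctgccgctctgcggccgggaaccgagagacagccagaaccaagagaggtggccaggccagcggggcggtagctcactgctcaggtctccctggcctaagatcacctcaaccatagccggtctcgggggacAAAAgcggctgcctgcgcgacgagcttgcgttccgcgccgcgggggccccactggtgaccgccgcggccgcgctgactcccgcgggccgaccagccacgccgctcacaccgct
Gata3, chr2:9878551-9878850, minus strand: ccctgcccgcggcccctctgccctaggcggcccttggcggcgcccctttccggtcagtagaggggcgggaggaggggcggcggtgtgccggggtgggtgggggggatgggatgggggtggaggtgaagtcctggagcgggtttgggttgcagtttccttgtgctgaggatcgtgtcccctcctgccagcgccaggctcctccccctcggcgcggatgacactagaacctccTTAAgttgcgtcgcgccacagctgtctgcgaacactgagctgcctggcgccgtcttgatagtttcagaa
Gata5, chr2:180334630-180334929, minus strand: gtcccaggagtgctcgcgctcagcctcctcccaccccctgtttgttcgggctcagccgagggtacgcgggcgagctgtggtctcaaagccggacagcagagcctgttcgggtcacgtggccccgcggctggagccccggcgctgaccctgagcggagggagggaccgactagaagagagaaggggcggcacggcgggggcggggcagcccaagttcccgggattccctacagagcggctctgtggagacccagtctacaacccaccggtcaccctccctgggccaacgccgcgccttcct

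A and T made up 30.7% of the Gata2 window shown, 26.3% of the one at its other start (chr6:88198414-88198713), 32.7% of Gata3 and 30.3% of Gata5, where the median over 31396 autosomal promoters in the table was 47.0%. Only 13.5% of promoters had a lower share than Gata3, and 4.91% a lower share than the other Gata2 start. Runs of at least 4 A or T letters numbered 2 in Gata2 as shown, 1 in Gata3 and 0 in Gata5 and at the other Gata2 start, against a median of 6. The longest run was 9 bases in Gata2, and 31.1% of promoters held a run as long. Across all promoters, those touched by an HMGA2 peak (462, or 1.47%) had a median of 54.7% A and T, against 47.0% in the rest. For γ-H2AX the values were 46.3% at 1139 touched promoters and 47.0% in the rest, and for ATM 49.7% at 577 and 47.0%. These are descriptions of sequence windows, and no peak in a Gata promoter was available to set beside them.

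The letters GATA, or TATC for the opposite strand, were found in 1 of the 4 windows, that of Gata3, where 57.5% of all promoters held at least 1. The match lay 37 bases after the start, in tggcgccgtcttGATAgtttcaga, with the match in capitals, and it was also the only match in the 4 windows on either strand to the longer form, GATA with A or T before it and A or G after it, which 29.5% of promoters held. The longer form contains the shorter. A match of letters is not a binding site. From the listed starts, the nearest HMGA2 peak was 8.17 kb away at Gata2 (12.9 kb from its other start), 7.90 kb at Gata3 and 23.0 kb at Gata5, against a median of 7.90 kb over all promoters. The nearest γ-H2AX peak was 16.4, 11.6, 9.19 and 27.9 kb away in the same order of starts, against 6.19 kb, and the nearest ATM peak 7.55, 12.3, 13.7 and 36.2 kb, against 7.94 kb. Of the 4 starts, that of Gata5 was the farthest from the peaks of each list.

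Gata4, a cardiac and gonadal regulator, is the longest of the 5, annotated on chromosome 14 at 63198914 to 63271712. Its window of 112.8 kb held 2 HMGA2 peaks (0.242 to 7.22) against 7.0 expected, 4 γ-H2AX peaks (1.09 to 10.2) against 5.27 and 4 ATM peaks against 5.20. The HMGA2 ratio of 0.286 had an interval of 0.0346 to 1.03 and was higher than at 19.2% of all genes. Against the density within 1 Mb it was 0.492 (0.0596 to 1.78). Both HMGA2 peaks lay inside the gene, with scores of 21.09 (chr14:63243332-63243499) and 25.15 (chr14:63250148-63250290).

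Gata4 also carried the highest-scoring peaks of the whole set. The ATM peak at chr14:63219193-63219468 had a score of 35.39 and a width of 276 bp, the widest of the 32, and 4.33% of the ATM list scored as high. It lay 20.3 kb inside the lower end, and no peak of another antibody was closer than 23.9 kb. The γ-H2AX peak at chr14:63272498-63272653 scored 34.51, reached by 5.00% of its list, and lay 786 bp beyond the upper end. It was not among the authors' γ-H2AX promoter regions. Other γ-H2AX peaks inside the gene scored 25.86 and 28.07, and another ATM peak inside scored 23.23. Below the lower end, an ATM peak of 20.94 and a γ-H2AX peak of 20.8 lay 5.30 and 4.13 kb away. That ATM peak lay within Neil2, which encodes a DNA glycosylase of base excision repair and is annotated at 63182439 to 63194154. Among the γ-H2AX and ATM peaks of the 5 windows it was the only one that overlapped a region of the authors' promoter lists. The region, at 63193444 to 63193611, had the same end as the peak and, as read here, a start 1 base later. Whether the peak and promoter lists count starts alike was not checked.

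Gata5, expressed in endocardium and gut epithelium, lies on chromosome 2 at 180325088 to 180335503, and its window held a single peak. The window of 50.4 kb held 1 γ-H2AX peak (0.0253 to 5.57) against 2.58 expected, and no HMGA2 or ATM peak (0 to 3.69) against 3.03 and 2.34. The γ-H2AX peak had a score of 29.81 and lay 18.4 kb below the lower end, within the lncRNA gene Gm29943. The nearest HMGA2 peak was 22.2 kb and the nearest ATM peak 35.4 kb from the gene. A stretch of 116.8 kb around Gata5 was free of ATM peaks and one of 120.6 kb free of γ-H2AX peaks, and 4.12% and 4.94% of all genes lay in stretches as long. The stretch free of HMGA2 peaks was shorter, 58.4 kb, a length reached around 25.1% of all genes. This part of the chromosome had few peaks of any list. By the density within 1 Mb, 1.16 HMGA2, 1.32 γ-H2AX and 1.29 ATM peaks were expected, so that 0 or 1 peak was within counting error. With 200 kb on either side, 5 HMGA2, 14 γ-H2AX and 6 ATM peaks were found against 24.6, 20.9 and 19.0 expected from the chromosome.

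Gata6, required in extraembryonic endoderm and in heart and lung development, lies on chromosome 18 at 11052510 to 11085636 and differed from Gata5 in its surroundings. Its window of 73.1 kb held no HMGA2 peak (0 to 3.69) against 4.51 expected and no γ-H2AX peak (0 to 3.69) against 3.71. The density within 1 Mb gave larger expected counts, 5.42 for HMGA2 and 4.18 for γ-H2AX, from 148 and 114 peaks. The upper limits were thus below the expected counts by either measure. Against the chromosome, however, the upper limits of the ratios were 0.818 for HMGA2 and 0.993 for γ-H2AX. Both lie above the median ratios over all genes, 0.724 and 0.965. ATM had 3 peaks (0.619 to 8.77) against 3.57, a ratio of 0.840, higher than at 44.9% of all genes. All 3 lay inside the gene, with scores of 21.24 (chr18:11059488-11059654), 29.81 (chr18:11068859-11068974) and 20.38 (chr18:11078089-11078261). They were 6.98, 16.3 and 25.6 kb inside the lower end, so none lay within 1 kb of an end, and 11.6% of ATM peaks scored as high as the strongest.

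The nearest HMGA2 peaks around Gata6 lay 86.8 kb below the gene (score 22.45) and 46.8 kb above it (23.09). They bounded a stretch of 166.8 kb without an HMGA2 peak, and 4.0% of all genes lay in a stretch at least as long, whereas the median distance between neighbouring HMGA2 peaks was 9.61 kb. The nearest γ-H2AX peaks lay 36.4 kb below (21.83) and 37.2 kb above (23.81), with 106.7 kb between them, a length reached around 6.66% of all genes. Windows empty of both antibodies were found at 647 of 20665 genes (3.13%). Among the 6196 genes whose expected HMGA2 count was at least that of Gata6, 184 (2.97%) had no HMGA2 peak, 103 (1.66%) no γ-H2AX peak and 32 (0.516%) neither. These shares were computed after the empty windows had been seen and describe how common such windows were. With 200 kb on either side, Gata6 had 14 HMGA2 and 13 γ-H2AX peaks against 26.7 and 22.0, and 21 ATM peaks against 21.1.

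**Figure D3:**
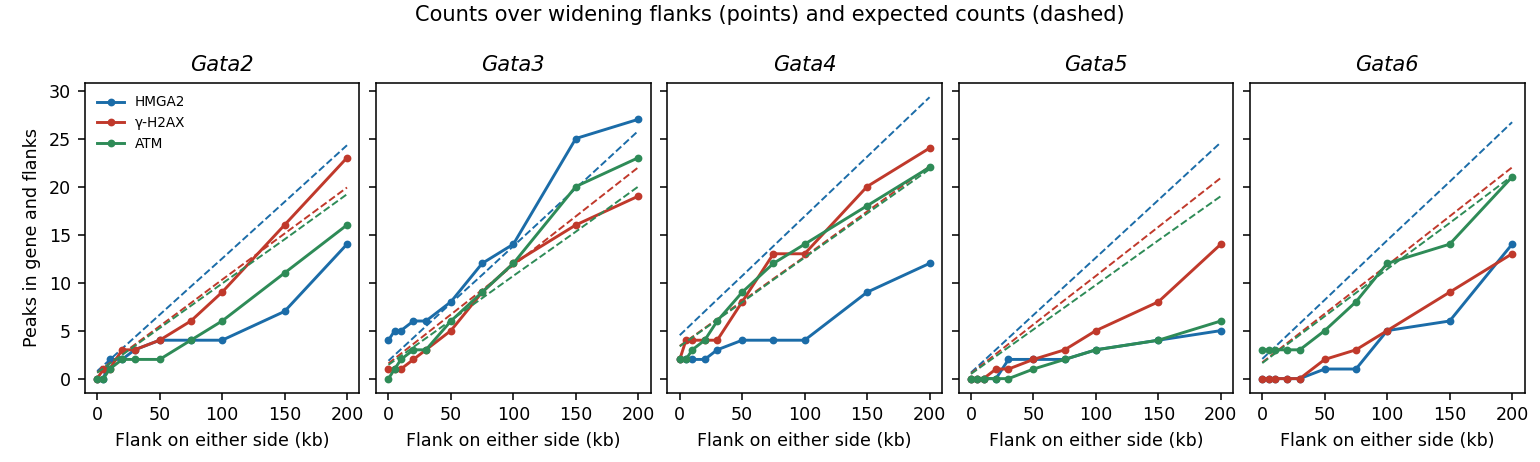
Number of peaks in each Gata gene with flanks of 0 to 200 kb on either side (points and solid lines) and expected counts from the chromosome (dashed lines, same colours). HMGA2 stayed at 4 peaks at Gata4 from 50 to 100 kb and at 0 at Gata6 up to 30 kb, whereas ATM at Gata6 stood at 21 at 200 kb beside 21.1 expected.

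The order of the genes differed between antibodies. By the ratio of count to expected count, HMGA2 went from Gata3 (1.41) through Gata2 (0.639) and Gata4 (0.286) to Gata5 and Gata6 (0). For γ-H2AX the order was Gata2 (1.17), Gata4 (0.759), Gata3 (0.552), Gata5 (0.388) and Gata6 (0). For ATM it was Gata3 (0.912), Gata6 (0.840), Gata2 (0.808), Gata4 (0.770) and Gata5 (0). The Poisson intervals of all 5 genes overlapped for each antibody, and differences between genes were not tested. Gata6 was last for γ-H2AX and shared the last place with Gata5 for HMGA2. For ATM its ratio of 0.840 lay below the median over all genes, 0.912. Gata3 was first for HMGA2 and in the middle for γ-H2AX.

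**Figure D4:**
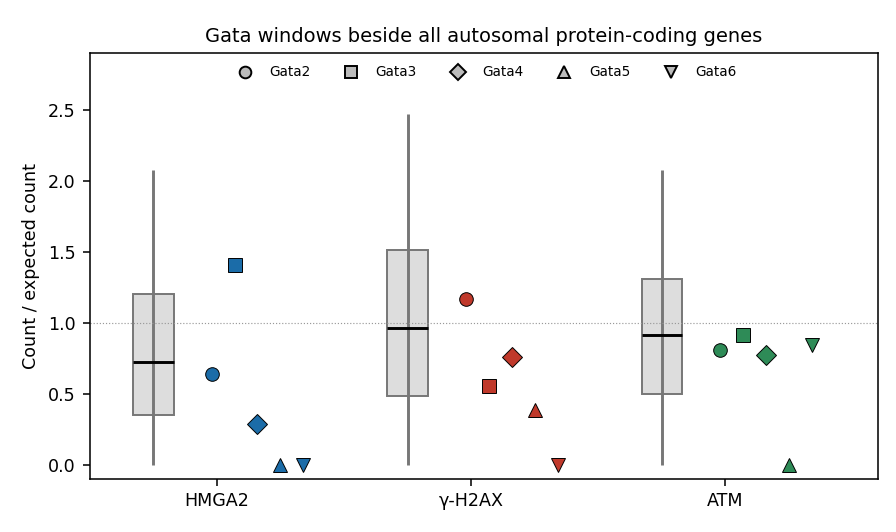
Ratio of count to expected count (y axis) of the 5 Gata windows for HMGA2, γ-H2AX and ATM, beside the distribution over 20665 autosomal protein-coding genes (box from the lower to the upper quartile with the median as a line, whiskers to the 5th and 95th percentiles). Gata3 at 1.41 lies above the HMGA2 box, which ends at 1.2, and the ATM ratios other than that of Gata5 lie between 0.770 and 0.912.

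Other annotated genes shared the windows, 8 of them lncRNA genes and 3 protein-coding. Besides Gm38708, 4930412O13Rik, 9230102O04Rik, Gm29943 and Neil2, these were Gm13262, in which the HMGA2 peak with a score of 23.96 above Gata3 lay, and Dnajb8, Fdft1, Gata5os, Gm52543 and Gata6os, none of which was touched by a peak in the windows. Gata5os and Gata6os, lncRNA genes at the ends of their namesakes, overlap them by 2647 and 58 bp.

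Peaks of different antibodies seldom met, at these genes as in the whole lists. In the 5 windows 1 pair of peaks shared bases, the HMGA2 peak of Gata4 at 63250148 to 63250290 and a γ-H2AX peak at 63250248 to 63250418, over 43 bp. Thus 1 of 10 HMGA2 peaks, 1 of 10 γ-H2AX peaks and 0 of 12 ATM peaks touched a peak of another list. In the whole lists 4.96% of HMGA2, 5.78% of γ-H2AX and 5.72% of ATM peaks did. The next closest pair was the HMGA2 and ATM peaks parted by 462 bp upstream of Gata2. At Gata6 the nearest peak of another antibody to any ATM peak was a γ-H2AX peak 43.4 kb away.

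Other genes with GATA-type zinc fingers were set beside the 5. Of 10 such genes, HMGA2 peaks lay within 1 kb of an end of 1, γ-H2AX peaks of 4 and ATM peaks of 1, beside the 18.1%, 24.1% and 16.5% of all genes given above. Rere, which encodes a nuclear receptor corepressor, had all 3, with scores of 30.26 for HMGA2 at its lower end and of 21.24 for γ-H2AX and 24.09 for ATM at its upper end. The other γ-H2AX peaks lay at Mta2, a subunit of the NuRD chromatin remodelling complex (32.79, also in the γ-H2AX promoter list), Gatad2b, another NuRD subunit (29.58), and Zglp1 (24.42). Gata1, the X-linked erythroid member, had 1 HMGA2 peak in its window and no peak of the others. The median ratios of these 10 genes, in the order HMGA2, γ-H2AX and ATM, were 0.785, 1.03 and 0.873, against 0.724, 0.965 and 0.912 over all genes.

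Of 14 genes whose products work with GATA factors, HMGA2 peaks lay within 1 kb of an end of 1, γ-H2AX peaks of 2 and ATM peaks of 2, again beside 18.1%, 24.1% and 16.5% of all genes. Those of HMGA2 were at both ends of Mef2c, a muscle and neural transcription factor (30.42 and 22.29). Runx1, a haematopoietic transcription factor, had 3 γ-H2AX peaks at its ends, and the highest, at 23.09, was in the γ-H2AX promoter list. Zfpm1, the cofactor FOG1, had a γ-H2AX peak (25.2) and Zfpm2, the cofactor FOG2, an ATM peak (21.61). Lmo2, a bridging protein of blood cell complexes, had an ATM peak (26.53). Its window, like that of Gata6, held 0 HMGA2 and 0 γ-H2AX peaks. For ATM it held 5 peaks, a ratio of 1.68, where Gata6 had 3 and a ratio of 0.840. The median ratios of the 14 genes were 0.452, 1.39 and 0.792, where those over all genes were 0.724, 0.965 and 0.912.

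The gene most like each Gata gene among all 20665 was named by the smallest Euclidean distance between their 3 ratios, 1 per library. This was Atn1 for Gata2 (distance 0.0231), Myo6 for Gata3 (0.0380), Slc30a10 for Gata4 (0.0175), Coq4 for Gata5 (0.000207) and Pgap3 for Gata6 (5e-05). Pgap3 had 0 HMGA2, 0 γ-H2AX and 2 ATM peaks in its window. Myo6 had 14, 5 and 8. With 3 values per gene such likeness is a description only.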

How the data were processed

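Peaks were called by the authors in each wild-type library with MACS14, with the shifting model off, a p threshold of 0.01 and a shift of 30 bp, per the labels. Trimmomatic, Bowtie2, SAMtools and HOMER (no versions) and mm10 are named in the submitters' processing notes. Neither the control library nor the read depth is given in the sources used here. The deposited peak lists carry the authors' score. The deposited promoter lists hold starts and ends with no value. The deposited averaged profile and plotting configurations were not used, since they hold no value for single genes.

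Peaks were counted when they touched a window by at least 1 bp, with Python 3.11.15, pandas 2.3.3 and scipy 1.17.1. The code was tested on simulated lists. Gene spans came from RefSeq on GRCm38.p6, without strand, exons or UTRs, and strand and starts from its promoter table, which matched 3 of the 5 genes. Chromosomes were taken from the first to the last peak of the 3 lists. Expected counts were computed exactly over all rotations, without random draws, and keep no regional density. That of the surroundings left the window itself out. The members and gene lists were chosen with earlier results of these data known. The text names the 5 genes, genes touching their windows, listed genes with a peak within 1 kb of an end or in a promoter list, and the most similar gene. Alternatives were flanks of 10 and 50 kb, scores of 30 or more, local density, end distances of 500 bp and 5 kb, and other overlap rules.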

Additional observations from a re-analysis of the deposited data

How the results depend on the processing

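Of 31 alternative values, 17 stayed within 1.5 times the reported value. Among them was every ratio of count to expected count under other flanks and with local density. The limit of 1.5 times concerns the value itself and not counting error or whether an interval includes 1. The HMGA2 interval did include 1 with local density, and no interval is given for other flanks. With flanks of 50 kb the windows held 19 HMGA2, 21 γ-H2AX and 23 ATM peaks, and with 10 kb γ-H2AX had 6. That count of 6 differed by more than 1.5 times but lay inside the Poisson interval of the reported 10 peaks, 4.80 to 18.4. The counts with other flanks follow from the length searched. Restricted to scores of at least 30, 0 HMGA2, 1 γ-H2AX and 1 ATM peak remained, and the HMGA2 ratio was 0. Only 11.6% of the whole HMGA2 list scored so high, and a count of 0 has an upper Poisson limit of 3.69. Within 500 bp of an end, 0 Gata genes had a γ-H2AX peak. Within 5 kb, γ-H2AX peaks were at 2 genes and ATM peaks at 1. With an overlap of at least 50% of the shorter peak, 0 pairs of different antibodies met, and with gaps of at most 500 bp 2 pairs did. With regions of the ATM promoter list anywhere in a window, 1 Gata gene was counted (Gata4, through Neil2). No paired analysis was possible because each antibody and genotype has 1 library. Counts of 0 to 6 per gene limit the precision of each ratio, and differences between single genes were not tested.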
